A study of Homo sapiens with 8 samples.

Results

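The 10 genes described here are regulators of the BCL2 family, chosen by name from the deposited table of read counts: the anti-apoptotic BCL2, BCL2L1 (which encodes BCL-XL) and MCL1, the effectors BAX and BAK1, and the BH3-only genes PMAIP1 (NOXA), BBC3 (PUMA), BCL2L11 (BIM), BID and BIK. All 10 were among the 23393 genes of the table, and all 10 were among the 15262 genes that passed the expression filter and were tested. BIK had between 8 and 127 counts per library and is the only one of the 10 with a group mean below 5 CPM, where CPM is edgeR's normalised read count, scaled to library size with TMM factors.

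Proteins of this family decide whether the outer mitochondrial membrane stays closed. BAX and BAK1 form the pores through which cytochrome c leaves the mitochondrion, BCL2, BCL-XL and MCL1 hold them in check, and BH3-only proteins bind the guardians or activate the effectors directly. Guardians and BH3-only proteins pair selectively, with NOXA known for its preference for MCL1, whereas BIM and PUMA bind all of the main guardians. MCL1 and NOXA are short-lived proteins, and much of the control of the family is exerted after transcription, which read counts do not measure.

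The MDA-MB-231 line, derived from a human breast cancer and long established, lacks oestrogen and progesterone receptors and makes little ASS1, the enzyme needed to make arginine. The libraries form 4 groups of 2, namely parental control cells, parental arginine-starved cells, ρ0 control cells and ρ0 arginine-starved cells. The ρ0 cells are a single clone of the same line, without mitochondrial DNA. For starvation the labels give arginine deiminase (ADI), an enzyme that degrades arginine, at 0.3 µg/mL for 48 h, whereas the methods of the study describe medium without arginine. The labels give 1 growth medium for all groups, with high glucose and serum. The study's methods keep ρ0 cells in pyruvate, uridine and ethidium bromide, so loss of mitochondrial DNA, selection of 1 clone and the supplements cannot be told apart in a comparison of the lines. No label says whether the 2 libraries of a group came from separate cultures, so p-values measure the spread between these samples, which may be technical.

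The libraries held between 25259503 and 31022155 counts. The ρ0 control libraries stood apart from each other: their biological coefficient of variation was 25.1%, and those of the other 3 pairs ran from 1.84% to 5.18%. edgeR's fit estimates for each gene a spread shared by all groups. Standard errors in parental cells thus include the spread of the ρ0 control pair, and those in ρ0 cells are averaged with tighter pairs. For PMAIP1 the SE was 0.30 in parental and 0.28 in ρ0 cells, where the control pairs differed 1.004-fold and 2.08-fold. The table has 0 genes of the mitochondrial genome, so the ρ0 label could not be checked on them. Of 5 genes of the mesenchymal MDA-MB-231 profile (VIM, CD44, EGFR, CAV1 and AXL), all had group means of at least 104 CPM, and ESR1 and PGR were at or below 0.142 CPM in every group. ERBB2, also listed as low or absent in this line, went against that. It was at 58.6 and 30.3 CPM in parental control and starved cells, and at 86.9 and 60.4 CPM in ρ0 control and starved cells. CDH1 and EPCAM, which mark epithelial cells, were at 15.0 and 23.1 CPM in ρ0 control cells against 0.0300 and 0.470 CPM in parental control cells. ASS1 was at 0.202 CPM in parental control cells, 0.0552 CPM in parental starved cells, 8.93 CPM in ρ0 control cells and 22.7 CPM in ρ0 starved cells. The part of these line differences in the results below was not tested. In such bulk RNA a loss of cells of one kind and less RNA per cell cannot be told apart.

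The promoters of 5 members are shown because 4 of these genes had the largest called changes in parental cells, and because BAX was called in neither starvation contrast but has an unusual run of motifs. RefSeq's promoters on GRCh38.p14 were matched for 8 members, all but MCL1 and BIK, and the 250 bases before a start site were searched on both strands for the cyclic AMP response element (TGACGTCA), its short form (TGACG), the CEBP-ATF composite element (TGATGNAA), and motifs of FOXO (GTAAACA), NF-kB (GGGACTTTC) and STAT (TTCNNNGAA) factors and of E-box binding factors (CACGTG). The first 4 sequences have 1 match each, in capitals, and the BAX sequence has 5. They run 5′ to 3′ on the strand of the gene.
PMAIP1, chr18:59899746-59899995, plus strand, short element in capitals: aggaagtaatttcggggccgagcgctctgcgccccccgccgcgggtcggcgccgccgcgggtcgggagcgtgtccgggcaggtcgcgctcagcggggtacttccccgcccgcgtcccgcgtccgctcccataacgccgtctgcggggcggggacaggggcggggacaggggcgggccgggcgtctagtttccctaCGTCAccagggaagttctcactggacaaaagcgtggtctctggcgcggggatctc
BCL2L11, chr2:111120664-111120913, plus strand, FOXO motif in capitals: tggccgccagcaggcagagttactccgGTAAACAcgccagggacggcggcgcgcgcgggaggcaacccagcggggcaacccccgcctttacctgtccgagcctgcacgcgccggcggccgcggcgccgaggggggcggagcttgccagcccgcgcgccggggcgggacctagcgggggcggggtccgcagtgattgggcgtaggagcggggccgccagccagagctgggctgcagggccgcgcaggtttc
BCL2, chr18:63319770-63320019, minus strand, short element in capitals: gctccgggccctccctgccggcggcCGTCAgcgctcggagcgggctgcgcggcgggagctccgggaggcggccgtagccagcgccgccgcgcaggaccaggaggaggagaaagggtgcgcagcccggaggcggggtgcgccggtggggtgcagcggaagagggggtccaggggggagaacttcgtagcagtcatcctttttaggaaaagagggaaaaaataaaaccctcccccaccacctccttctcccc
BCL2L1, the first of 2 listed starts, chr20:31723964-31724213, minus strand, short element in capitals: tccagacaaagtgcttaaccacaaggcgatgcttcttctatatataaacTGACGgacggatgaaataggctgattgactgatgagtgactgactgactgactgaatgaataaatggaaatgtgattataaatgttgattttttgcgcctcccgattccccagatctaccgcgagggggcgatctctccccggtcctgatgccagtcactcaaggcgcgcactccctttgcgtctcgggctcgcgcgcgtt
BAX, chr19:48954625-48954874, plus strand, E-boxes and short element in capitals: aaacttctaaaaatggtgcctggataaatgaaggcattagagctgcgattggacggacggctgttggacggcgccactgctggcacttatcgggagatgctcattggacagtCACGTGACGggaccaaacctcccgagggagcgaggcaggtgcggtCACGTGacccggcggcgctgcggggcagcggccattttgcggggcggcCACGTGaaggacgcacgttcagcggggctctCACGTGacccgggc

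The short element of PMAIP1 lies from -55 to -51 relative to the start and that of BCL2 from -225 to -221, both read on the opposite strand. The short element of BCL2L1 lies from -201 to -197, and that of BAX from -134 to -130, where it overlaps an E-box. This short element was found in 21.2% of the 35116 RefSeq promoters of the same length. The FOXO motif of BCL2L11 lies from -223 to -217 and was found in 2.98% of the promoters. BAX had 4 E-boxes, at -138, -93, -45 and -14 (first base), whereas 6.34% of the promoters held at least 1 and 5 of the 35116, or 0.0142%, held 4 or more. E-boxes were also present once in the BBC3 promoter and in 2 of the 5 BID promoters. These 2 BID promoters overlap, and both matches are the same E-box. The full response element (1.65% of promoters), the composite element (3.14%), the NF-kB motif (0.325%) and the STAT motif (6.57%) had no match in the promoters of these 8 members. A match is a run of letters and not a measured binding site.

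In parental cells, arginine starvation raised 4 of the 10 members and lowered 1. PMAIP1 rose 4.94-fold, BCL2 2.31-fold, BCL2L11 2.27-fold and BID 1.54-fold, whereas BCL2L1 fell to 0.494 of its control level. In ρ0 cells 4 members rose, namely PMAIP1 2.12-fold, BBC3 1.92-fold, MCL1 1.46-fold and BCL2L11 1.38-fold, and none passed the test downwards. The response differed between the lines in 6 of 10 members, against 40.4% of all tested genes. The responses of BCL2, BCL2L11 and PMAIP1 were lower in ρ0 cells, and those of BCL2L1, BBC3 and MCL1 were higher.

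**Figure D1:**
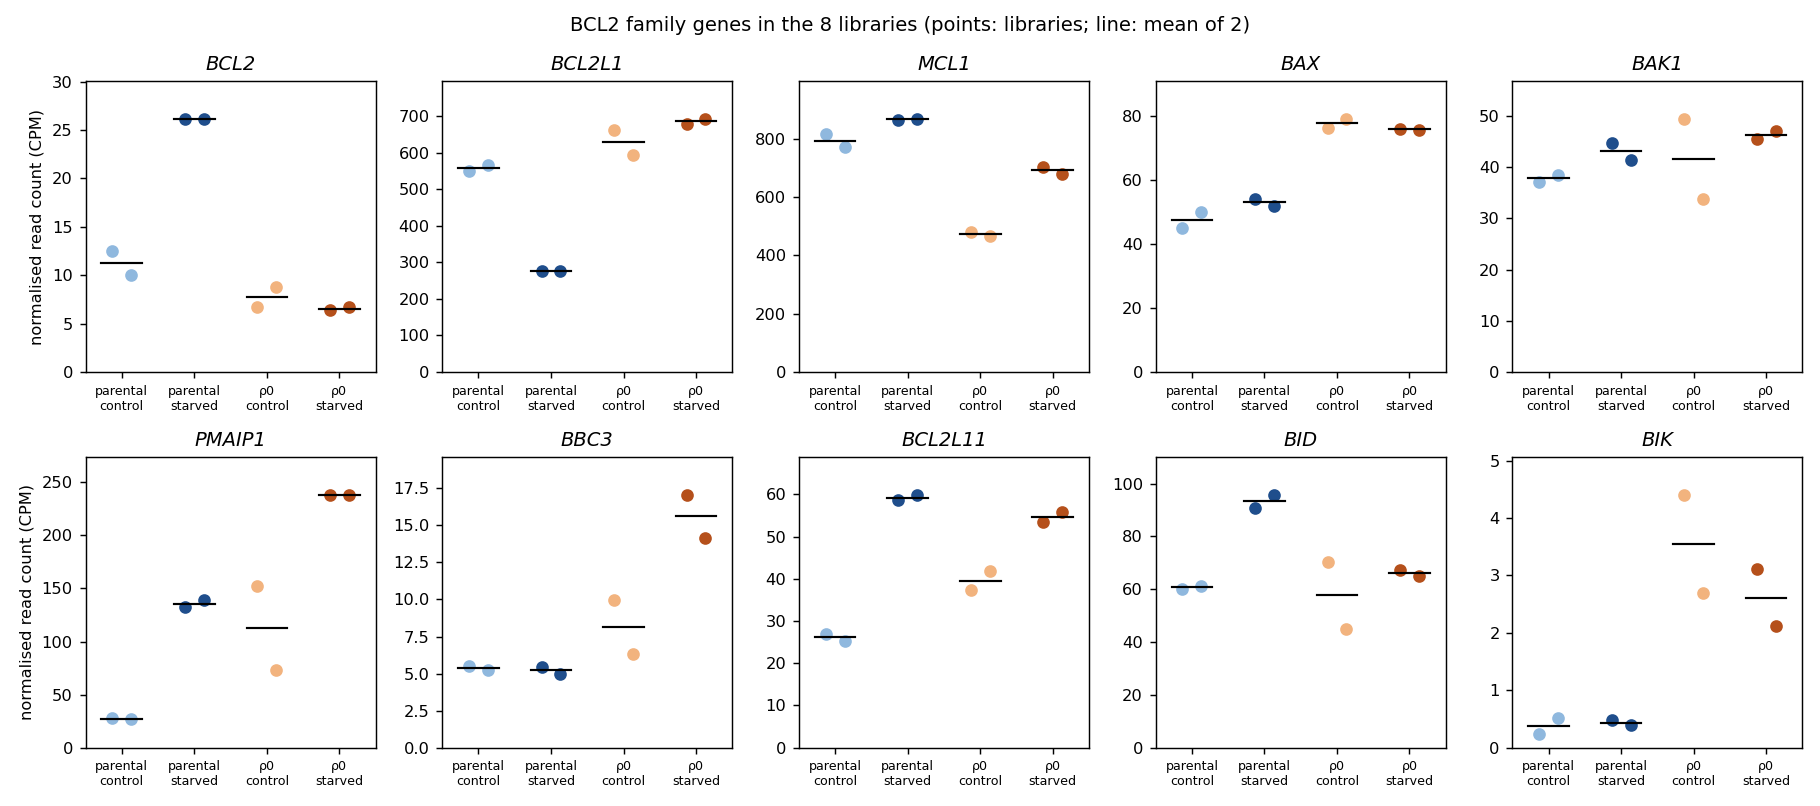
Normalised read count (CPM, linear axes from 0) of the 10 BCL2 family genes in each of the 8 libraries, with points for libraries and a line for the mean of 2. Parental starved cells stand alone for BCL2 (26.1 CPM in both libraries) and BCL2L1 (275 and 276 CPM), and the ρ0 control points of PMAIP1 lie far apart (152 and 72.9 CPM).

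**Figure D2:**
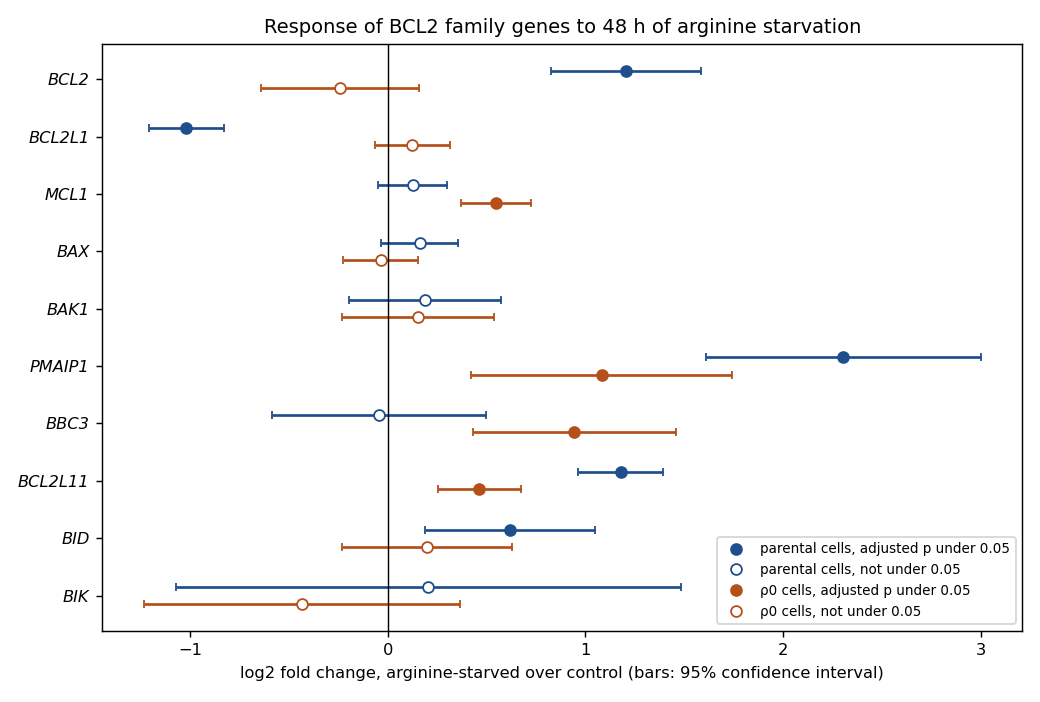
Log2 fold change of arginine-starved over control cells for each gene in parental (blue) and ρ0 (orange) cells, from edgeR's fit to all 8 libraries, with 95% confidence intervals. Filled points have an adjusted p under 0.05: 5 genes in parental cells and 4 in ρ0 cells, with PMAIP1 and BCL2L11 filled in both.

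A gene was called when its Benjamini-Hochberg adjusted p in edgeR's quasi-likelihood test was under 0.05. At this level 30.4% of the tested genes were called higher and 35.5% lower in parental starved cells, against 4 and 1 of the 10 members. In ρ0 starved cells 19.2% of the tested genes were higher and 22.1% lower, against 4 and 0 members. No member was lower in ρ0 starved cells at an unadjusted p under 0.05 either, and DESeq2 and limma-voom also called 0. With 1 ρ0 control library left out, the value of BCL2 was -0.42 without replicate 1 and that of BIK -0.72 without replicate 2. Such a fit has 1 library in the ρ0 control group and takes no spread from that pair. With a log2 fold change beyond 1 required as well, as in the criteria of the study, 3 members were higher in parental cells (PMAIP1, BCL2 and BCL2L11) and 1 lower (BCL2L1), where 12.7% and 22.1% of the tested genes were. PMAIP1 alone passed both criteria in ρ0 cells, where 4.22% of the genes were higher and 8.19% lower. The median log2 fold change of the 10 members was 0.20 in parental cells and 0.17 in ρ0 cells, against -0.071 and -0.022 over all tested genes. For the difference between the responses (ρ0 minus parental), 3 members were higher and 3 lower, where 21.6% and 18.8% of the tested genes were, and the median was -0.31 over the members and 0.021 over all genes.

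BCL2 itself, the founding anti-apoptotic gene, had 12.5 and 10.1 CPM in the parental control libraries and 26.1 CPM in both parental starved libraries. In ρ0 control cells it had 6.73 and 8.78 CPM, and in ρ0 starved cells 6.46 and 6.67 CPM. The parental starved libraries were above all others, and the ρ0 starved libraries lay just below both ρ0 control libraries. The log2 fold change was 1.21 (SE 0.16, edgeR adjusted p = 0.000422) in parental cells and -0.24 (SE 0.17, adjusted p = 0.292) in ρ0 cells. The ρ0 value was -0.42 without ρ0 control replicate 1 and -0.025 without replicate 2. The responses differed by -1.45 (SE 0.23, adjusted p = 0.00334), and in each of 17 alternative analyses this difference was called, with values from -1.62 to -1.26. Its RNA was also lower in ρ0 cells in full medium, with a log2 difference of -0.54 (edgeR adjusted p = 0.0226), and under starvation, with -1.99 (adjusted p = 4.12e-05). The full-medium difference was not called in 5 of 18 alternatives, among them the fit without parental control replicate 1 or without either ρ0 starved library.

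BCL2L1 moved the opposite way. This gene, whose long product BCL-XL protects the membrane, had 551 and 566 CPM in the parental control libraries and 276 and 275 CPM in the parental starved libraries. The ρ0 libraries had 663 and 595 CPM in control cells and 679 and 693 CPM under starvation, so all 4 were above the parental libraries. The fall in parental cells had a log2 fold change of -1.02 (SE 0.082, edgeR adjusted p = 3.99e-05). It had no counterpart in ρ0 cells, where the value was 0.12 with a 95% interval from -0.065 to 0.31. That ρ0 value was 0.21 without ρ0 control replicate 1 and 0.061 without replicate 2. The interval leaves out any fall to the size seen in parental cells. The difference of 1.14 between the responses (SE 0.11, adjusted p = 0.000623) was called in all 17 alternatives, from 1.04 to 1.24. Read counts per gene do not separate the long anti-apoptotic isoform from the short pro-apoptotic one. An antisense RNA, ABALON, overlaps exons of BCL2L1 in GENCODE v29, and the strand setting of the counting is not given in the sources used here.

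MCL1, the short-lived guardian, had 816 and 770 CPM in parental control cells and 865 and 867 CPM in parental starved cells. The ρ0 control libraries were lowest, with 479 and 467 CPM, and the ρ0 starved libraries had 703 and 680 CPM. No 2 groups overlapped for this gene. In GENCODE v29 the exons of MCL1 overlap those of the noncoding ADAMTSL4-AS1 on the same strand. The rise in ρ0 cells was 0.55 on the log2 scale (SE 0.075, edgeR adjusted p = 0.00135) and was called in all 18 alternatives, from 0.47 to 0.59. In parental cells the change was 0.13 (SE 0.075, adjusted p = 0.168). That value was called with only the compared groups (0.16) and with group weights in limma-voom (0.13). It was 0.12 without ρ0 control replicate 1 and 0.17 without replicate 2, and total-count scaling turned it to -0.034. The responses differed by 0.42 (SE 0.11, adjusted p = 0.0174), which lost the call without any 1 of 5 libraries: parental control replicate 1, either parental starved library or either ρ0 starved library. The log2 difference between ρ0 and parental cells was -0.75 in full medium (adjusted p = 0.000110) and -0.32 under starvation (adjusted p = 0.00603, not called without either ρ0 starved library).

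Of the effectors, BAX had 44.9 and 49.9 CPM in parental control cells, 54.0 and 52.0 CPM in parental starved cells, 76.4 and 79.0 CPM in ρ0 control cells and 75.8 and 75.7 CPM in ρ0 starved cells. Every ρ0 library was above every parental library, with a log2 difference of 0.71 (SE 0.083, edgeR adjusted p = 0.000219) in full medium and 0.52 (SE 0.083, adjusted p = 0.000991) under starvation. BAX was called in neither starvation contrast. The log2 fold change was 0.16 (95% interval -0.032 to 0.35) in parental cells and -0.036 (-0.23 to 0.16) in ρ0 cells. The parental value was called with only the compared groups (0.20) and with group weights in limma-voom (0.16). It was 0.16 without ρ0 control replicate 1, 0.20 without replicate 2 and -0.000403 under total-count scaling.

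BAK1, the other pore former, lay between 37.2 and 44.8 CPM in the 4 parental libraries. It had 49.4 and 33.9 CPM in the ρ0 control libraries and 45.5 and 47.1 CPM in the ρ0 starved libraries. The ρ0 control libraries span the whole range of the gene. No contrast of BAK1 passed the test in the fit to all 8 libraries. The log2 fold changes were 0.19 (95% interval -0.20 to 0.57) in parental and 0.15 (-0.23 to 0.54) in ρ0 cells. Its direction in ρ0 cells depends on the control library, with 0.45 without replicate 1 and -0.084 without replicate 2. In parental cells the control and starved libraries of BAK1 did not overlap. The parental rise was called with only the compared groups (0.22) and with group weights in limma-voom (0.19). It was 0.18 without ρ0 control replicate 1 and 0.23 without replicate 2. A pseudogene on the opposite strand, GGNBP1, overlaps exons of BAK1 and is in the table too.

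PMAIP1 encodes NOXA, the BH3-only partner of MCL1. It rose in both lines. Its level was 27.5 and 27.4 CPM in parental control cells and 133 and 139 CPM after starvation. In ρ0 cells the control libraries had 152 and 72.9 CPM and both starved libraries 238 CPM. Control and starved libraries did not overlap in either line, and the ρ0 control libraries lay on either side of the parental starved ones. The log2 fold change was 2.30 (SE 0.30, edgeR adjusted p = 0.000350) in parental cells, from 2.14 to 2.34 over 18 alternatives, all called. In ρ0 cells it was 1.08 (SE 0.28, adjusted p = 0.0191), and 1.71 without ρ0 control replicate 1 or 0.66 without replicate 2. This ρ0 call was lost in the fit to the compared groups and without either ρ0 starved library.

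The smaller PMAIP1 response of ρ0 cells, a difference of -1.22 (SE 0.40, edgeR adjusted p = 0.0450), was less firm than those of BCL2, BCL2L1 and BCL2L11. It was not called in 9 of 17 alternatives, namely upper-quartile and total-count scaling, limma-voom, and the fits without any 1 parental or ρ0 starved library. Without ρ0 control replicate 1 it was -0.59 and without replicate 2 it was -1.68. In full medium PMAIP1 was already 4.09-fold higher in ρ0 cells (log2 difference 2.03, SE 0.30, adjusted p = 0.000697), from 1.41 to 2.52 on the log2 scale in the 18 alternatives. Under starvation the lines differed by 0.81 (adjusted p = 0.0351), which was not called without any 1 parental or ρ0 starved library.

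BCL2L11 encodes BIM, which binds every main guardian and can activate the effectors. It had 26.9 and 25.4 CPM in parental control cells, 58.6 and 59.9 CPM in parental starved cells, 37.4 and 41.7 CPM in ρ0 control cells and 53.5 and 55.8 CPM in ρ0 starved cells. All starved libraries were above all control libraries. The log2 fold change was 1.18 (SE 0.092, edgeR adjusted p = 3.56e-05) in parental cells and 0.46 (SE 0.091, adjusted p = 0.00582) in ρ0 cells. The latter was not called without ρ0 starved replicate 2, with an adjusted p of 0.0504. The responses differed by -0.72 (SE 0.13, adjusted p = 0.00490), called in all 17 alternatives, from -0.79 to -0.62. The lines differed by 0.60 in full medium (adjusted p = 0.000898) and by -0.12 under starvation (adjusted p = 0.281, 95% interval -0.33 to 0.093). Its exons overlap those of the noncoding MIR4435-2HG on the opposite strand, so reads of the pair cannot be told apart without strand.

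BBC3 encodes PUMA, a BH3-only protein induced by several kinds of stress. It had 5.49 and 5.24 CPM in parental control cells and 5.46 and 4.96 CPM in parental starved cells, which overlap. In ρ0 cells it had 9.96 and 6.30 CPM in the control libraries and 17.1 and 14.2 CPM in the starved ones, all above the parental libraries. The log2 fold change was -0.043 (95% interval -0.58 to 0.50) in parental cells and 0.94 (SE 0.22, edgeR adjusted p = 0.0119) in ρ0 cells. The ρ0 value was 1.32 without ρ0 control replicate 1 and 0.67 without replicate 2, and the call was lost in the fit to the compared groups, with group weights in limma-voom, and without ρ0 starved replicate 1. The responses differed by 0.99 (SE 0.32, adjusted p = 0.0419), a call lost without any 1 parental or ρ0 starved library. Under starvation BBC3 was 2.998-fold higher in ρ0 than in parental cells (adjusted p = 0.000562), and in full medium 1.51-fold higher (adjusted p = 0.0505). The full-medium difference was called with DESeq2, with DESeq2 size factors, without a filter and with a replicate block. On the log2 scale it was 0.60, and 0.23 without ρ0 control replicate 1 or 0.94 without replicate 2. Exons of BBC3 overlap the microRNAs MIR3191, on the same strand, and MIR3190, on the opposite strand.

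BID links death receptors to mitochondria once caspase-8 has cut it. It had 60.2 and 61.3 CPM in parental control cells and 90.7 and 95.8 CPM in parental starved cells, the highest of the series. The ρ0 control libraries had 70.5 and 44.9 CPM and enclosed the ρ0 starved libraries at 67.2 and 64.9 CPM. The parental rise was 0.62 on the log2 scale (SE 0.18, edgeR adjusted p = 0.0189) and was not called under total-count scaling, at 0.46, or without any 1 parental library. The ρ0 value was 0.20 (95% interval -0.23 to 0.63), with 0.56 without ρ0 control replicate 1 and -0.080 without replicate 2. The responses differed by -0.42, with a 95% interval from -1.03 to 0.18. This difference was -0.74 without ρ0 control replicate 2 and -0.056 without replicate 1. Under starvation BID was lower in ρ0 cells, with a log2 difference of -0.50 (adjusted p = 0.0435), a call lost under upper-quartile scaling and without any 1 parental or ρ0 starved library.

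BIK, a BH3-only gene of the endoplasmic reticulum, was nearly silent in parental cells, at 0.240 and 0.521 CPM in control and 0.475 and 0.390 CPM in starved libraries (8 to 15 counts). The ρ0 libraries had 4.41 and 2.70 CPM in control cells and 3.11 and 2.11 CPM under starvation (51 to 127 counts). Every ρ0 library was thus above every parental one. The log2 difference between the lines was 3.23 (SE 0.43, edgeR adjusted p = 0.000425) in full medium and 2.60 (SE 0.44, adjusted p = 0.00129) under starvation, or 9.41-fold and 6.04-fold. With starvation BIK was not called in either line, with 95% intervals from -1.07 to 1.48 in parental cells and -1.23 to 0.37 in ρ0 cells. The ρ0 value of -0.43 became -0.72 without ρ0 control replicate 2 and -0.027 without replicate 1.

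Between the lines in full medium 4 members were higher in ρ0 cells (BIK, PMAIP1, BAX and BCL2L11) and 2 lower (MCL1 and BCL2), where 30.5% and 31.8% of all tested genes were. Under starvation 5 were higher (BIK, BBC3, BCL2L1, PMAIP1 and BAX) and 3 lower (BCL2, BID and MCL1), against 32.9% and 33.5% of the tested genes. The median log2 difference of the members was 0.38 in full medium and 0.31 under starvation, and it was -0.011 and -0.014 over all genes. BAX, BIK and PMAIP1 were thus higher and MCL1 and BCL2 lower in ρ0 cells in both media. Within the ρ0 control pair, replicate 1 was above replicate 2 for BBC3, PMAIP1, BAK1, BID and BIK by 1.46 to 2.08 times. For the other 5 members the pair differed by 1.03 to 1.30 times.

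**Figure D3:**
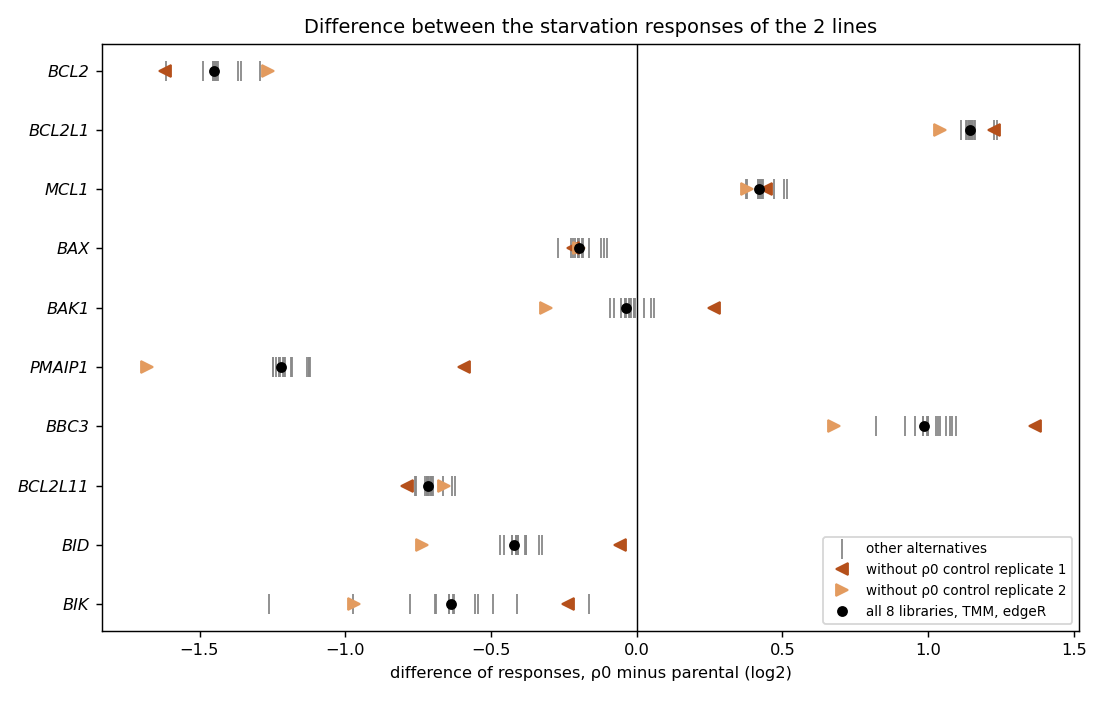
Difference between the starvation responses of ρ0 and parental cells (log2, ρ0 minus parental) for each gene. The black point is the fit to all 8 libraries, grey ticks are the alternatives and the other fits without 1 library, and triangles are the fits without 1 of the ρ0 control libraries. BCL2 (-1.62 to -1.26) and BCL2L1 (1.04 to 1.24) stay far from 0, whereas PMAIP1 runs from -1.68 to -0.59 with the choice of ρ0 control library.

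Ratios of 2 genes within a library do not depend on how libraries are scaled, so they were used to set guardians and BH3-only genes side by side. PMAIP1 counts were 3.37% and 3.56% of MCL1 counts in parental control libraries and 15.3% and 16.0% in parental starved libraries. In ρ0 cells they were 31.7% and 15.6% in control and 33.9% and 34.9% in starved libraries. One ρ0 control library thus matched the parental starved level and the other approached the ρ0 starved level. BCL2L11 counts were 4.88% and 4.48% of BCL2L1 counts in parental control cells and 21.2% and 21.8% after starvation, whereas the ρ0 libraries stayed between 5.64% and 8.05%. For BCL2 over BCL2L1 the shares were 2.27% and 1.78% in parental control, 9.46% and 9.48% in parental starved, 1.01% and 1.47% in ρ0 control, and 0.951% and 0.963% in ρ0 starved cells. The mean log2 ratio of BCL2L11 to BCL2L1 was 2.20 higher after starvation in parental cells. MCL1 counts were 148% and 136% of BCL2L1 counts in parental control cells and 313% and 315% after starvation, against 72.2% and 78.4%, then 103% and 98.2%, in ρ0 cells. The shares over BCL2L1 have a common denominator, whose log2 fold change in parental cells was -1.02, against 0.13 for MCL1. In parental and ρ0 cells, starvation changed the mean log2 ratio of BBC3 to BCL2L1 by 0.98 and 0.85. For BAX to BCL2L1 the changes were 1.18 and -0.16. They were 1.05 and -0.082 for BCL2L11 to MCL1, and 0.060 and -0.37 for BAK1 to MCL1. None of these ratios was tested. They include the lengths of both transcripts, so only their changes between groups can be read.

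**Figure D4:**
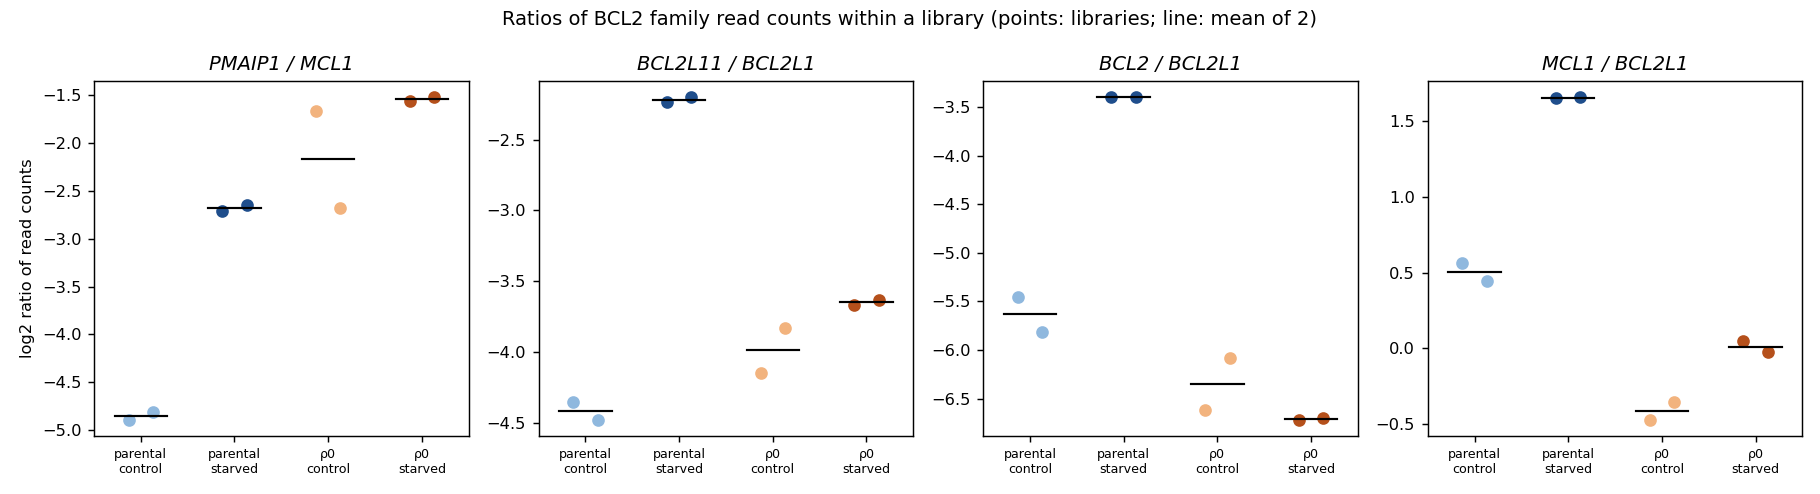
Log2 ratio of read counts of 2 genes within each library, with points for libraries and a line for the mean of 2. The parental starved libraries are highest in the panels of BCL2L11, BCL2 and MCL1 over BCL2L1. Those panels share BCL2L1 as denominator, which itself fell in parental starved cells. The mean log2 ratio of PMAIP1 to MCL1 goes from -4.85 in parental control to -1.54 in ρ0 starved cells.

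Levels of different genes were compared as CPM per kb of the longest coding transcript in GENCODE v29. In parental control cells the order was BCL2L1 (214 CPM per kb), MCL1 (202), BAX (34.9), BID (24.4), BAK1 (17.1), PMAIP1 (14.1), BCL2L11 (4.997), BBC3 (2.92), BCL2 (1.51) and BIK (0.399). The SDs of BCL2L1 and MCL1 were 3.87 and 8.32 CPM per kb (n = 2), so that these neighbours lay within about the sum of their spreads. In parental starved cells MCL1 (220 CPM per kb) was above BCL2L1 (106), followed by PMAIP1 (69.6). In ρ0 control cells the level of BCL2L1 (241 CPM per kb) was above that of MCL1 (120), and PMAIP1 (57.7, SD 28.7) and BAX (57.2) could not be ordered. In ρ0 starved cells BCL2L1 (263 CPM per kb), MCL1 (176) and PMAIP1 (122) were followed by BAX (55.8), and BIK (2.74) was above BCL2 (0.879). The order depends on the transcript: with the median coding length BCL2L1 was first in all 4 groups, at 302 to 750 CPM per kb, and MCL1 in parental starved cells was second at 239. On that length BAX (144) was above MCL1 (130) in ρ0 control cells, and BAX (98.1) was above PMAIP1 (84.5) in parental starved cells.

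**Figure D5:**
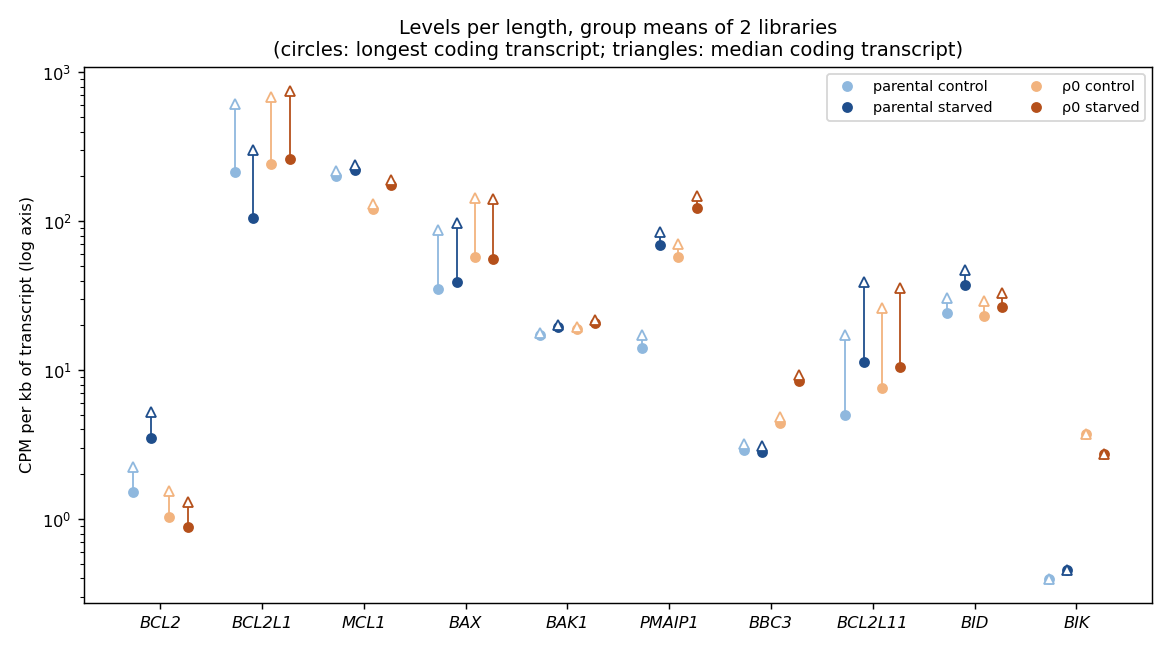
Group mean level of each gene as CPM per kb (log axis), with circles for the longest and triangles for the median coding transcript, 2 libraries per group. BCL2L1 and MCL1 lie above 100 CPM per kb in every group on both lengths, and BIK is the lowest gene in parental cells (0.399 and 0.454 CPM per kb).

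Across the 8 libraries, log2 CPM of BAX and BIK were the most alike pair of members (Pearson r = 0.971), followed by PMAIP1 and BCL2L11 (0.877). BCL2 and BCL2L1 were the most opposed, at -0.980. These values describe 4 groups of 2 libraries and not 8 independent conditions. Among 9951 genes with a mean of at least 10 CPM, the pattern most like that of PMAIP1 belonged to TAX1BP1 (0.999), SERINC1 and BCORL1, and that most like BCL2L11 to PWWP2A (0.998), TIPARP and NUP153. BCL2L1 was followed most closely by RNF187 (0.998), HDAC6 and FGD6, BCL2 by ZNF850 (0.994), GNAI1 and NAA16, and MCL1 by SEPSECS (0.996), THNSL1 and CCND2. The closest genes were C3orf14 (0.997), LGALS3 and ARIH2 for BAX, TRAF5 (0.989), IAH1 and RPN2 for BAK1, and SEPW1 (0.985), MRPL33 and GOLGA3 for BID. BBC3 and BIK were below 10 CPM on average and were not searched.

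The other genes of the pathway were taken as 7 lists of 66 genes, of which 61 were tested. Over all of them 30 were higher and 17 lower in parental starved cells, and 25 and 13 in ρ0 starved cells, with medians of 0.28 and 0.12. The responses differed for 11 genes upwards and 21 downwards in ρ0 cells. Of all tested genes, 30.4% were called higher and 35.5% lower in parental starved cells, and 19.2% and 22.1% in ρ0 starved cells. For the difference the shares were 21.6% and 18.8%. The counts of each list below stand against these shares, and the lists were not tested as sets. Among list genes with a mean of at least 10 CPM, the largest rises in parental cells were those of ATF3 (4.22), a stress-induced transcription factor, AEN (2.73), which encodes a nuclease, and GDF15 (2.53), a secreted stress marker, all as log2 fold changes with edgeR adjusted p-values of at most 2.83e-05. The largest falls were those of BCL2A1 (-3.69), CASP6 (-2.40) and BIRC3 (-2.07), with adjusted p-values of at most 6.57e-05. Among the same genes, in ρ0 cells GDF15 (2.43), ATF3 (2.02) and MYC (1.997) rose most, and BIRC5 (-1.70) and E2F1 (-1.58) fell most, with adjusted p-values of at most 0.00314.

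Among 10 tested relatives in the BCL2 family itself, 2 were higher and 6 lower in parental starved cells, and 2 and 1 in ρ0 starved cells. BCL2A1, an anti-apoptotic target of NF-kB, dropped from 58.4 to 4.52 CPM in parental cells and was near 0 in ρ0 cells, at 0.202 and 0.0921 CPM, so its difference in response (2.62, adjusted p = 0.0153) rests on few ρ0 counts and on the prior count of the fit. BNIP3L, a mitophagy receptor, was at 141 and 69.2 CPM in parental control and starved cells and at 119 and 223 CPM in ρ0 cells, a difference in response of 1.93 (SE 0.27, adjusted p = 0.00190). BMF, a BH3-only gene at under 10 CPM in every group mean that was singled out after its values were seen, was at 9.93 and 2.49 CPM in parental and 6.999 and 9.78 CPM in ρ0 cells, with a difference in response of 2.48 (SE 0.19, adjusted p = 0.000248). BCL2L10, HRK and BCL2L14 had at most 8 counts in any library and were not tested.

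Downstream of the pore, 5 of 11 genes of the apoptosome, caspases and released mitochondrial proteins were higher and 4 lower in parental starved cells, against 2 and 2 in ρ0 starved cells. The shares over all tested genes were 30.4% and 35.5% in parental starved cells, and 19.2% and 22.1% in ρ0 starved cells. Of 5 tested inhibitors of apoptosis, 2 were higher and 2 lower in each line. BIRC3, which encodes the ubiquitin ligase cIAP2, had the largest upward difference in response among list genes with a mean of at least 10 CPM, as it fell from 204 to 48.7 CPM in parental cells and rose from 366 to 636 CPM in ρ0 cells (2.86, SE 0.11, edgeR adjusted p = 3.60e-05). Of 5 outer membrane genes (the VDAC channels, TSPO and MTCH2), 2 were higher and 3 lower in parental cells and 1 and 4 in ρ0 cells. Among 6 genes that control MCL1 or BIM by ubiquitin, 4 were higher in parental and 3 in ρ0 cells, and the others were not called.

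Upstream, 7 of 12 transcription regulators of BH3-only genes were higher in each line, with 1 lower in parental and 4 in ρ0 cells. The smaller response of ATF3 in ρ0 cells (-2.20, SE 0.26, edgeR adjusted p = 0.00111) was the largest downward difference among list genes with a mean of at least 10 CPM, followed by AEN (-1.60) and CDKN1A (-1.53), which encodes the cell cycle inhibitor p21. Of 12 cell cycle, stress response and death receptor genes outside the family, 8 were higher and 1 lower in parental cells. In ρ0 cells 8 of them were higher and 4 not called.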

How the data were processed

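RNA-seq was measured in 8 libraries of MDA-MB-231 parental and ρ0 cells, 2 per group. The authors deposited counts of reads for each gene symbol as a table that was not normalized, and the submitters' processing notes name Bowtie, Partek and hg19 without versions. How reads were assigned to genes and strands is not given in the sources used here. Genes are given by the symbols of the table. The 10 members, the 7 pathway lists and the tests were chosen with earlier results of these data known.

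Counts were tested in R 4.3.3 with edgeR 4.0.16 (filterByExpr, TMM, quasi-likelihood F test, all 8 libraries, 1 mean per group, 4 residual degrees of freedom), with Benjamini-Hochberg adjustment over 15262 genes per contrast. A standard error is the size of a log2 fold change over the root of its F statistic, and 95% intervals use the fit's total degrees of freedom. All members are named. Of the lists, the 3 largest called rises and falls with a mean of at least 10 CPM are named per starvation contrast and for the difference. One gene that this rule picks is not reported here. Likeness is Pearson's r of log2 CPM (prior count 2). Alternatives were 3 other scalings, 2 other filters, DESeq2 1.42.0, limma-voom 3.58.1 with and without group weights, a replicate block, the compared groups alone, the fold threshold, and leaving out each library. Scripts were tested on simulated counts. Promoters are RefSeq's on GRCh38.p14, and lengths are from GENCODE v29. No coordinate comes from the count table.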

Additional observations from a re-analysis of the deposited data

Results flagged for a closer look

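The response to starvation differed between the lines, by the test of the difference itself in edgeR's fit, for 6 of the 10 members. The same test called 40.4% of all tested genes. The log2 differences, ρ0 minus parental, were -1.45 for BCL2, 1.14 for BCL2L1, -0.72 for BCL2L11, -1.22 for PMAIP1, 0.99 for BBC3 and 0.42 for MCL1. The first 3 were called in each of 17 alternatives. PMAIP1, BBC3 and MCL1 lost the call in 9, 6 and 5 of them. With 2 libraries per group, no group was large enough to search for a single library far from the others.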

How the results depend on the processing

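The members called numbered 5 in parental starvation, 4 in ρ0 starvation, 6 for the difference, and 6 and 8 between the lines in full medium and under starvation. Parental starvation gave 8 with group weights in limma-voom and with only the compared groups, and 4 to 8 with 1 library left out (8 without either ρ0 control library). ρ0 starvation gave 2 with only the compared groups and 2 to 8 with 1 library left out (2 without either ρ0 starved library, 8 without ρ0 control replicate 1). Leaving out 1 library gave 3 to 8 for the difference (3 without parental control replicate 1 or any 1 starved library), 5 to 10 in full medium (10 without ρ0 control replicate 2) and 5 to 8 under starvation (5 without either ρ0 starved library). The share of all genes called moved with these counts: with 1 library left out it ran from 51.5% to 80.1% in parental starvation, 20.2% to 62.8% in ρ0 starvation, 22.5% to 65.9% for the difference, 47.9% to 77.3% in full medium and 51.8% to 80.2% under starvation. It was 83.0% and 22.1% for the 2 starvation contrasts with only the compared groups. A library left alone in its group is assumed to vary like the other groups. With the fold threshold added, ρ0 starvation gave 1, the difference 3 (19.9% of all genes), full medium 2 (30.9%) and starvation 4 (35.5%). Directions that turned were those of MCL1 (-0.034) and BAX (-0.000403) in parental cells under total counts and of the BAK1 difference under upper quartile (0.058) and total counts (0.050). With 1 library left out, directions turned for BBC3 (-0.11 to 0.028, higher without parental starved replicate 2) and BIK (-0.27 to 0.83, lower without parental control replicate 1) in parental cells, and for BAX (-0.060 to 0.00185), BAK1 (-0.084 to 0.45) and BID (-0.080 to 0.56) in ρ0 cells, each without ρ0 control replicate 2. They also turned for the BAK1 difference (-0.31 to 0.26, higher without ρ0 control replicate 1 and, at 0.02, without parental starved replicate 1), and in full medium for BAK1 (-0.16 to 0.44, lower without ρ0 control replicate 1) and BID (-0.44 to 0.27, higher without ρ0 control replicate 2). The causes were not tested. Total counts moved the median of all genes by -0.16 and upper quartile by -0.12 in parental starvation, and shifts elsewhere stayed within 0.1. With the replicate block 5, 4, 6, 7 and 8 members were called, BBC3 in full medium being added and no other call changed. Deviations of equally numbered libraries correlated between -0.053 and 0.039, so the numbers were not taken as pairs. BIK had no value with at least 10 counts in every library, and the difference has no fit to only the compared groups. At 8 to 15 counts BIK in parental cells is the least precise member.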
